A study of Homo sapiens with 18 samples.

Results

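The 10 genes described here belong to the BCL2 family, which sets whether a cell survives or enters apoptosis. They were chosen by name among the 62703 genes counted in 18 RNA-seq libraries. MCL1, BCL2, BCL2L1, BCL2L2 and BCL2A1 are the 5 anti-apoptotic members. BCL2L11, BAK1, BID, BIK and BMF are the 5 pro-apoptotic members. All 10 symbols matched 1 Ensembl gene each.

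Total RNA came from 3 human multiple myeloma cell lines, which the labels call AMO1, H929 and LP1. In each line 3 libraries are labelled gN1E (a gapmeR against NEAT1) and 3 are labelled SCR (a scrambled gapmeR), all after 48 h of uptake without a transfection reagent. A gapmeR is a short antisense oligonucleotide whose DNA core makes RNase H cut the RNA it pairs with, and NEAT1 is the long non-coding RNA on which paraspeckles are built. The study asked which transcripts change with NEAT1 in myeloma cells. No other agent is named for these groups, each line is 1 culture model rather than patient material, and the labels do not say that libraries of a group came from separate cultures, so p-values measure the spread between these libraries only.

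Anti-apoptotic BCL2 proteins sit on the outer mitochondrial membrane and hold the pore-forming proteins BAK and BAX in check. BH3-only proteins, encoded here by BCL2L11 (BIM), BID, BIK and BMF, bind the anti-apoptotic proteins or activate the pore formers, and the open pore releases cytochrome c to start the caspases. Plasma cells and myeloma cells are known to rely on MCL1, a protein with a short half-life, and subsets of myeloma depend on BCL2 or BCL2L1 (BCL-XL) as well.

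The direction of NEAT1 goes against the gapmeR labels. Levels are given as TPM, the count per exonic length scaled so that all genes of a library sum to the same total. In AMO1 it was 10.3, 11.7 and 12.2 TPM in the libraries labelled SCR and 62.4, 79.0 and 70.8 TPM in those labelled gN1E. It was 9.99 to 11.7 against 62.1 to 77.8 TPM in the libraries labelled H929 and 16.3 to 21.5 against 73.8 to 102 TPM in those labelled LP1. Its log2 fold change, gN1E minus SCR, was 2.66 in AMO1, 2.74 in the libraries labelled H929 and 2.14 in those labelled LP1 (edgeR, adjusted p = 5.1e-13, 3.11e-14 and 0.0269). The call under the label LP1 was lost without SCR B, gN1E A, gN1E B or gN1E D (adjusted p 0.0578 to 0.176), while the log2 fold change stayed between 2.00 and 2.25. The names inside the deposited tables also differ from the labels, in gapmeR for all 18 libraries and in line for 12. Inside the tables SCR and gN1E are exchanged in all 3 lines, and so are H929 and LP1, so every value under the label H929 may belong to LP1 and the reverse. AMO1 carries its own name. Libraries are therefore called by their labels throughout, and "with NEAT1" means higher in the libraries labelled gN1E. Total counts ran from 28061606 to 69937229 per library. In AMO1 they moved with the label, from 28061606 to 49784737 under gN1E against 53227560 to 66142827 under SCR. Under the label LP1 the median was also lower under gN1E (45406587 against 64358551), and under the label H929 it was higher (56022788 against 48902120). In both of these the ranges of the labels overlapped. The part of depth in the results was not tested. The 7 plasma cell markers were all present, with a summed level of 10701 to 20892 CPM (counts scaled to the TMM-adjusted size of the library). The 6 markers of other cells summed to 8.71 to 26.4 CPM, almost all of it CD3E (7.40 to 24.9 CPM), and MS4A1 did not exceed 0.18 CPM. In AMO1 and the libraries labelled H929 and LP1 alike, the marker lists place the RNA with plasma cells. In bulk RNA, fewer cells of a type and less RNA per cell cannot be told apart.

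The study followed microRNAs that NEAT1 may hold away from their targets, among them miR-106a-5p, miR-106b-5p and miR-195-5p. Their mature sequences are shown with the seed (bases 2 to 8) in capitals, because the seed decides which 3′ UTRs they can pair with. The first pair share the seed AAAGUGC, whose DNA match is GCACTTT, and miR-195-5p has the seed AGCAGCA, whose match is TGCTGCT. miR-15a-5p and miR-16-5p have the same seed AGCAGCA, so a TGCTGCT match does not tell these microRNAs apart. The sequences are from RefSeq (GRCh38.p14).
miR-106a-5p: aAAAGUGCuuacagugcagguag
miR-106b-5p: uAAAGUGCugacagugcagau
miR-195-5p: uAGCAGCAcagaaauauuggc

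The 3′ UTR of the canonical transcript (GENCODE release 44, hg38) was searched on the transcribed strand for these 7 letters in all 10 genes. BCL2 holds 2 GCACTTT and 1 TGCTGCT in 5279 bases, BCL2L11 holds 1 of each in 4213 bases, and BMF holds 1 TGCTGCT in 3897 bases. BCL2L2 holds 2 and 4, MCL1 has 1 GCACTTT, BIK has 1 TGCTGCT, and BCL2L1, BCL2A1, BAK1 and BID hold neither. Of all 19527 UTRs searched, 21.1% hold GCACTTT and 21.5% hold TGCTGCT. Among UTRs within 20% of the length of that of BCL2 these shares are 55.2% and 51.1%, so matches are common in UTRs this long. The 6 sites in the 3 genes that passed the test in at least 1 line are shown as 30 bases of the transcribed strand, with the seed match in capitals. A match is a description of the letters and not a measured binding site.
BCL2, chr18:63125495-63125524 (minus strand): aatagagtatatGCACTTTccaaattgggg
BCL2, chr18:63123430-63123459 (minus strand): ttagctataatgGCACTTTgtttgtgttgt
BCL2, chr18:63126079-63126108 (minus strand): tatccaatcctgTGCTGCTatcctgccaaa
BCL2L11, chr2:111166218-111166247 (plus strand): ctcctgactagaGCACTTTactctgtttcc
BCL2L11, chr2:111165204-111165233 (plus strand): tacgcccctttgTGCTGCTggcttttctgg
BMF, chr15:40090943-40090972 (minus strand): cagtcagcatgtTGCTGCTggcagcctgtg

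MCL1 was the most abundant member in every library of every line. Levels of different genes are compared as TPM. MCL1 (chr1:150560895-150579738, minus strand), which binds BIM and BAK, was 774, 866 and 747 TPM in the AMO1 libraries labelled SCR and 758, 829 and 820 TPM in those labelled gN1E. Libraries labelled H929 had 751, 690.5 and 785 TPM (SCR) and 584, 634 and 684 TPM (gN1E). Those labelled LP1 had 496, 498 and 465 TPM (SCR) and 506, 460 and 502 TPM (gN1E). The lowest AMO1 library thus lay above the highest of the label LP1. MCL1 alone made up 65.9% ± 0.93 of the transcripts of the 10 genes in AMO1, 63.5% ± 1.57 under the label H929 and 61.3% ± 0.81 under the label LP1 (SD, n = 6 libraries). Of its exonic bases, 5.27% lie in ADAMTSL4-AS1 on the same strand.

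BCL2 ranked 3 of 10 in AMO1 and under the label H929, and 7 of 10 under the label LP1. The gene (chr18:63123346-63320128, minus strand) encodes the founding anti-apoptotic protein, which binds BIM in many lymphoid cells. In AMO1 its level was 82.1, 89.3 and 73.2 TPM under SCR and 96.9, 109 and 104 TPM under gN1E. Libraries labelled H929 had 62.8, 59.5 and 60.3 TPM (SCR) and 64.2, 65.7 and 78.7 TPM (gN1E). Those labelled LP1 had 15.1, 16.3 and 15.3 TPM (SCR) and 17.6, 16.8 and 19.2 TPM (gN1E). In all 3 lines each library labelled gN1E lay above each labelled SCR.

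The other anti-apoptotic members were highest under the label LP1. BCL2L1 (chr20:31664452-31723989, minus strand), the gene of BCL-XL, was 17.7 to 21.0 TPM in AMO1, 24.2 to 28.4 TPM under the label H929 and 41.1 to 46.8 TPM under the label LP1, where it ranked 3 of 10. BCL2L2 (chr14:23298790-23311751, plus strand), the gene of BCL-W, was 6.77 to 8.51, 4.92 to 5.53 and 8.87 to 10.7 TPM in the same order of lines. BCL2L2 is uncertain, since 16.8% of its exonic bases are shared with the read-through gene BCL2L2-PABPN1 on the same strand. On the opposite strand the largest overlaps were 41.3% of the exonic bases of BCL2L1 (ABALON), 10.9% of BCL2L11 (MIR4435-2HG) and 8.46% of BMF (BMF-AS1). The part of these overlaps in the counts was not tested. BCL2A1 (chr15:79960892-79971196, minus strand), an NF-κB target that encodes BFL-1, was 0.33 to 0.88 TPM in AMO1 and 0.25 to 0.45 TPM under the label H929, from 3 to 18 and 4 to 8 read pairs per library. LP1 libraries had 8.67 to 10.7 TPM, from 135 to 229 read pairs.

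Among the pro-apoptotic members BAK1 was the most abundant in every line. BAK1 (chr6:33572547-33580293, minus strand), the gene of the pore former BAK, was 161 to 181 TPM in AMO1, 165 to 195 TPM under the label H929 and 130 to 161 TPM under the label LP1. BCL2L11 (chr2:111119378-111168445, plus strand), which encodes the BH3-only protein BIM, was 59.5 to 68.6, 38.2 to 50.5 and 15.4 to 21.9 TPM. BID (chr22:17734138-17774770, minus strand), whose protein is cleaved by caspase 8, was 20.5 to 32.2 TPM over all 18 libraries. For BCL2L11 the ranges of the 3 lines lay apart, whereas AMO1 overlapped with LP1 for BID and with both other lines for BAK1.

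BMF and BIK went in opposite directions across lines. BMF (chr15:40087890-40108892, minus strand), a BH3-only gene known to respond to loss of attachment and stress, was 10.4 to 15.1 TPM in AMO1, 7.19 to 10.6 TPM under the label H929 and 23.9 to 33.0 TPM under the label LP1. BIK (chr22:43110750-43129712, plus strand), the gene of a BH3-only protein of the endoplasmic reticulum, was 16.0 to 25.2, 21.5 to 30.4 and 9.18 to 11.7 TPM.

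**Figure D1:**
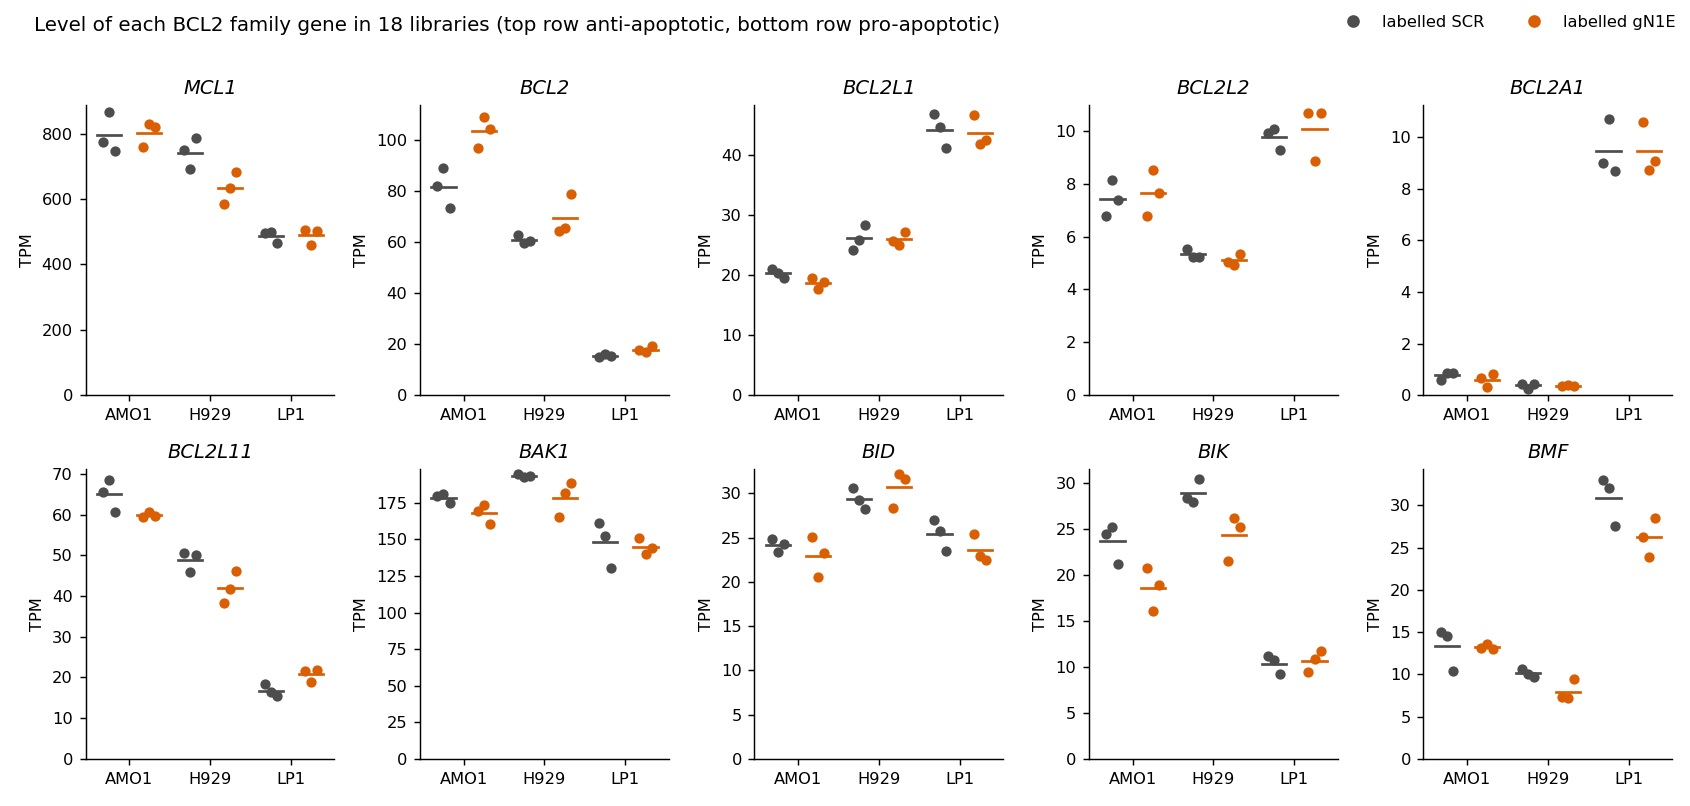
Level of each of the 10 genes in TPM (linear axes from 0, each panel on its own scale) in the 3 libraries per label and line; points are libraries and short lines are means. BCL2 is 73.2 to 109 TPM in AMO1 against 15.1 to 19.2 TPM under the label LP1, and BCL2A1 is above 1 TPM only under the label LP1.

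The order of levels was the same in AMO1 and under the label H929: MCL1, BAK1, BCL2, BCL2L11, BID, BIK, BCL2L1, BMF, BCL2L2, BCL2A1. The ranges over 6 libraries of BID and BIK overlapped in both, as did those of BIK and BCL2L1, and all other neighbours lay apart. Under the label LP1 the order was MCL1, BAK1, BCL2L1, BMF, BID, BCL2L11, BCL2, BIK, BCL2L2, BCL2A1. There BMF and BID overlapped, as did BCL2L11 and BCL2, BIK and BCL2L2, and BCL2L2 and BCL2A1.

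Differences between lines were tested as contrasts of the mean of both gapmeR labels in 1 fit of the 18 libraries. AMO1 against H929 called 10 of the 10 members, AMO1 against LP1 9, and H929 against LP1 9, at an adjusted p under 0.05. Of all 26436 genes in the fit, 44.4%, 75.9% and 74.6% did so, and the counts are to be read against these shares. BCL2A1 is among the called members in each pair. Under the label H929 it held 4 to 8 read pairs per library, below the filter of 10 reads. It entered this fit only through AMO1 (3 to 18 read pairs) and the label LP1 (135 to 229). The call of BAK1 between AMO1 and H929 (log2 -0.10, edgeR adjusted p = 0.0396) was kept in 10 of 20 alternatives. It was lost without SCR C, gN1E C or gN1E D of AMO1 and without SCR A, SCR B, gN1E B or gN1E C of H929 (adjusted p 0.0528 to 0.116). Within the libraries of either label alone 8 members were called between AMO1 and H929, beside 32.5% (SCR) and 33.6% (gN1E) of all genes. BAK1 missed in both (edgeR adjusted p = 0.254 under SCR and 0.129 under gN1E), BIK under SCR (0.0792) and BCL2A1 under gN1E (0.217). The sizes are what sets the members apart from each other. BCL2 was 4.72-fold higher in AMO1 than under the label LP1 (log2 2.24, standard error 0.041, edgeR adjusted p = 1.5e-31) and 3.34-fold higher under the label H929 than under LP1 (log2 1.74, standard error 0.040, edgeR adjusted p = 1.91e-28). BCL2L11 was 2.89-fold higher in AMO1 and 2.08-fold higher under the label H929 than under the label LP1. BIK was 1.73-fold and 2.16-fold higher in the same comparisons, and MCL1 1.41-fold and 1.20-fold.

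A second set of members was higher under the label LP1. BCL2A1 was 15.7-fold lower in AMO1 (log2 -3.97, standard error 0.17) and 28.8-fold lower under the label H929 (log2 -4.85, standard error 0.19) than under LP1, with the few read pairs given above behind the low side. BMF was 2.48-fold and 3.68-fold lower than under the label LP1, BCL2L1 2.62-fold and 1.96-fold, and BCL2L2 1.53-fold and 2.20-fold. Between AMO1 and H929 the log2 difference was 0.88 for BCL2A1 (standard error 0.28), not called in the libraries labelled gN1E alone, and ran from -0.41 for BCL2L1 to 0.57 for BMF in the other 9 members. For BID this was the largest of the 3 pairs of lines (-0.34, against -0.27 for AMO1 minus LP1). In the libraries labelled SCR alone that order turned (-0.251 against -0.315). BAK1 differed from LP1 by 0.03 in AMO1 (standard error 0.039, edgeR adjusted p = 0.544), with the sign turned under size factors of DESeq2 (-0.02). BID did not pass between H929 and LP1 (log2 0.07, standard error 0.055, edgeR adjusted p = 0.222), and its sign turned when the libraries labelled SCR were used alone (-0.06), whereas the libraries labelled gN1E alone gave 0.21 and a call (edgeR adjusted p = 0.0172). Scaling by total count alone called both of these differences and took away the call of BID between AMO1 and LP1, and it put the median log2 difference of all genes at 0.20 in AMO1 against LP1 and 0.24 in H929 against LP1, where TMM gave 0.02 and 0.05.

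**Figure D2:**
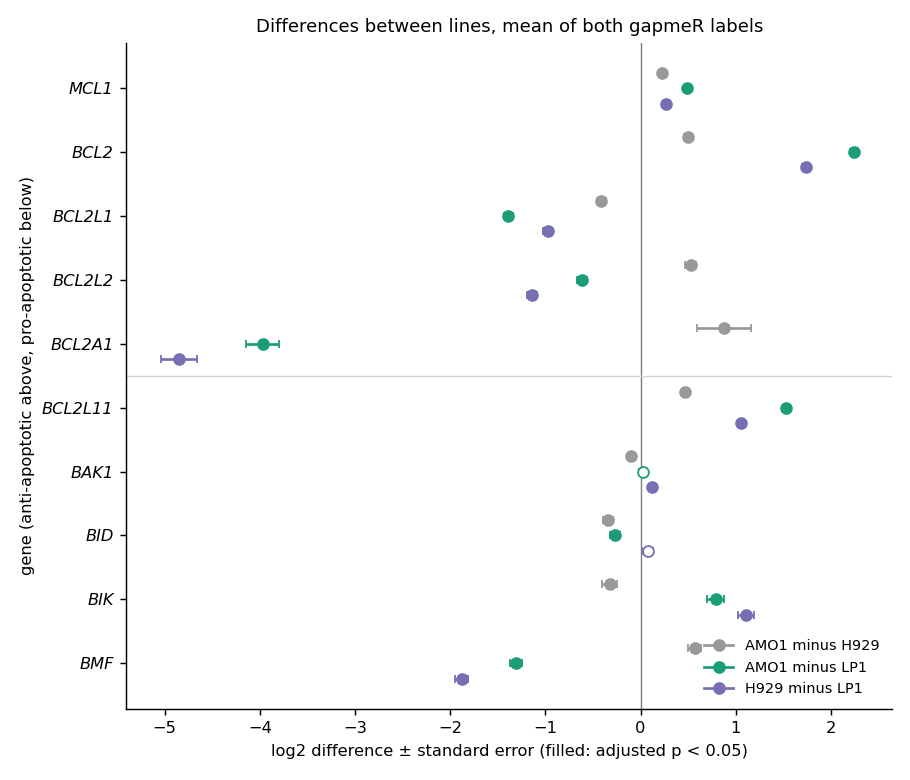
Log2 difference between lines with its standard error (x axis) for the 10 genes (y axis), as the mean of both gapmeR labels in the fit of 18 libraries; filled points have an adjusted p under 0.05. BCL2, BCL2L11 and BIK lie to the right in both contrasts with LP1, and BCL2A1, BMF, BCL2L1 and BCL2L2 to the left, down to -4.85 for BCL2A1.

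The balance of the family was taken in each library as the summed TPM of the 5 anti-apoptotic genes over that of the 5 pro-apoptotic genes, a description without a test. In AMO1 the anti-apoptotic sum was 848 to 985 TPM and the pro-apoptotic sum 275 to 313 TPM. Under the label H929 the sums were 679 to 880 and 261 to 315 TPM, and under the label LP1 537 to 591 and 206 to 250.5 TPM. In TPM the LP1 libraries thus held less of both kinds. In the TMM-scaled fit BAK1, the largest pro-apoptotic term, was higher than in LP1 by log2 0.03 in AMO1 (edgeR adjusted p = 0.544). In H929 it was higher by 0.12 (edgeR adjusted p = 0.00468).

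The ratio lay between 2.30 and 3.46 in all 18 libraries, with MCL1 as its largest term. In AMO1 it was 2.85, 3.15 and 2.91 under SCR and 3.07, 3.39 and 3.46 under gN1E, or 2.97 ± 0.16 against 3.31 ± 0.21 (SD, n = 3). Libraries labelled H929 had 2.69 ± 0.13 (SCR) against 2.59 ± 0.061 (gN1E), and those labelled LP1 2.46 ± 0.16 against 2.52 ± 0.036. The ranges of the labels overlapped in all 3 lines. Matched by replicate letter, the ratio in AMO1 was higher under gN1E in 3 of 3 pairs, which is given without a test. Under the label H929 it was lower under gN1E for each letter (A 2.68 to 2.61, B 2.56 to 2.53, C 2.82 to 2.65). Under the label LP1 it was higher for A (2.30 to 2.53) and B (2.44 to 2.48) and lower for D (2.62 to 2.55). AMO1 lay highest, with 2.85 to 3.46 against 2.53 to 2.82 under the label H929 and 2.30 to 2.62 under the label LP1, where the last pair of ranges overlap. Counting also BAX, BOK, BAD, BBC3, PMAIP1, HRK and BCL2L10 lowered the ratio to 1.85 ± 0.17 in AMO1, 1.45 ± 0.056 under the label H929 and 1.61 ± 0.069 under the label LP1 (SD, n = 6), which puts the mean of LP1 above that of H929.

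Without MCL1 the pro-apoptotic genes outweighed the rest. That ratio was 0.361 ± 0.017 (SCR) against 0.462 ± 0.027 (gN1E) in AMO1, with no overlap of the libraries. H929 libraries had 0.298 ± 0.0041 against 0.357 ± 0.021, again with no overlap. LP1 libraries had 0.343 ± 0.019 against 0.358 ± 0.0073, and the labels overlapped (SD, n = 3 in each group). BCL2 was the largest anti-apoptotic term left in AMO1 (mean 81.5 TPM under SCR and 103 TPM under gN1E) and under the label H929 (60.9 and 69.6 TPM). The gaps there therefore carry the change of BCL2 itself, tested below, and are not a separate result.

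BCL2 and BCL2L11, whose proteins bind each other, were set against each other in the same library, a choice made after their values were seen. In AMO1 the ratio of BCL2 to BCL2L11 was 1.25 ± 0.047 (SCR) and 1.73 ± 0.088 (gN1E). H929 libraries gave 1.25 ± 0.047 and 1.66 ± 0.071. LP1 libraries gave 0.933 ± 0.098 and 0.862 ± 0.038 (SD, n = 3 in each group). The libraries labelled gN1E lay above those labelled SCR in AMO1 and H929 and overlapped with them in LP1.

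**Figure D3:**
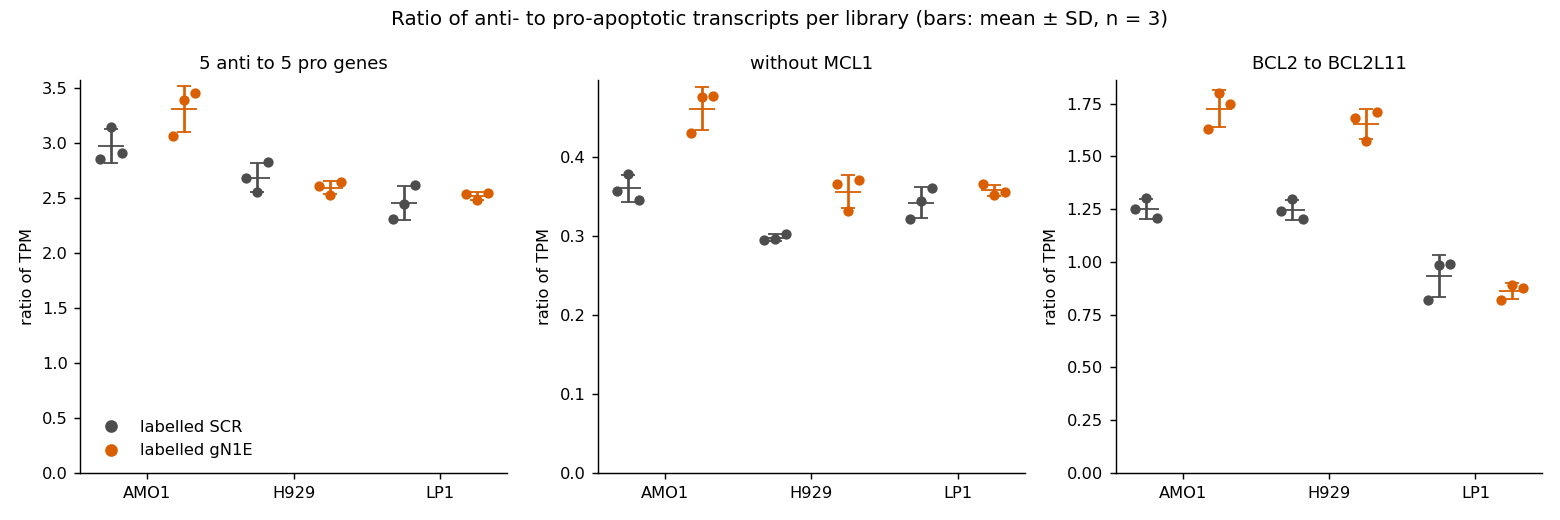
Ratio of summed TPM in each library (points) with mean and SD of 3 libraries, for the 5 anti- over the 5 pro-apoptotic genes, the same without MCL1, and BCL2 over BCL2L11 (linear axes from 0). The ranges of the first ratio overlap between labels in every line (2.97 ± 0.16 and 3.31 ± 0.21 in AMO1). Paired by letter, gN1E is higher in 3 of 3 pairs in AMO1, lower in each pair under the label H929 and mixed under the label LP1. The third ratio separates the labels in AMO1 and H929.

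Changes with the gapmeR label were tested line by line. Of the members, 1 of 10 tested passed an adjusted p of 0.05 in AMO1 (BCL2), 2 of 9 under the label H929 (BCL2, BMF) and 2 of 10 under the label LP1 (BCL2L11, BMF). Of all genes in these fits 2.06%, 5.47% and 1.43% did so, that is 473 genes (377 higher and 96 lower with NEAT1), 1286 (870 and 416) and 332 (152 and 180). With the replicate letter as a block, taken to pair the libraries of AMO1, 6.08% of genes passed there, that is 1394 (776 higher and 618 lower). BCL2 was still the 1 member. Scaled by total count alone, the higher and lower genes were 309 and 295, 556 and 743, and 229 and 130. BCL2A1, with at most 8 read pairs, did not pass the filter of 10 reads under the label H929. The members' median log2 fold change was -0.05 in AMO1, -0.05 in H929 and -0.01 in LP1, beside -0.02, -0.01 and 0 (-0.00122) over all genes.

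On TMM-scaled CPM, SCR and gN1E lay fully apart for 3 of 10 members in AMO1, 5 of 9 in H929 and 3 of 10 in LP1. Of all genes in these fits, 17.7%, 21.7% and 18.1% lay apart. BCL2 was higher under gN1E in all 3 lines by this measure. BCL2L11 was lower in AMO1 and H929 and higher in LP1.

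BCL2 rose with NEAT1 in AMO1 and H929. Its log2 fold change was 0.37 in AMO1 (1.29-fold, standard error 0.054, edgeR adjusted p = 0.00025) and 0.25 under the label H929 (1.19-fold, standard error 0.050, edgeR adjusted p = 0.00156). In LP1 libraries it was 0.19 (1.14-fold, standard error 0.057), and the adjusted p of 0.114 missed the threshold. All 16 alternative fits called it in AMO1 (adjusted p 7.54e-09 to 0.0054) and in H929 (8.6e-06 to 0.0457), and none in LP1 (0.0541 to 0.412). The difference of the changes between AMO1 and LP1 was 0.20 (standard error 0.079, edgeR adjusted p = 0.308), so the lines were not shown to differ. BCL2 spans 196783 bases of the genome, more than any other member, and with an offset for genomic span its log2 fold change was 0.30 in AMO1 (edgeR adjusted p = 0.00137) and 0.20 under the label H929 (edgeR adjusted p = 0.0147). The part of span in the change was not tested further.

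The other anti-apoptotic members did not pass in any line. MCL1 had a log2 fold change of 0.04 in AMO1 (standard error 0.050, edgeR adjusted p = 0.81) and -0.003 under the label LP1 (standard error 0.046, edgeR adjusted p = 0.987). In H929 libraries it was -0.16 (standard error 0.050, edgeR adjusted p = 0.0527), with every library labelled gN1E below every one labelled SCR, and 6 of 16 alternatives called it lower. BCL2L1 lay between -0.09 and 0.06, BCL2L2 between -0.001 and 0.06, and BCL2A1 was -0.29 in AMO1 with a standard error of 0.53.

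BCL2L11 rose with NEAT1 under the label LP1. Its libraries there were 18.4, 16.5 and 15.4 TPM under SCR and 21.5, 18.8 and 21.9 TPM under gN1E. The log2 fold change was 0.29 (1.23-fold, standard error 0.056, edgeR adjusted p = 0.00899), and 15 of 16 alternatives called it. Without replicate B of the LP1 libraries labelled SCR the value was 0.28, with an adjusted p of 0.0712.

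In the other lines BCL2L11 had the opposite sign. In AMO1 it was 65.6, 68.6 and 60.7 TPM under SCR and 59.5, 60.5 and 59.7 TPM under gN1E (log2 -0.09, standard error 0.054, edgeR adjusted p = 0.545). Under the label H929 it was 50.5, 45.9 and 50.1 TPM against 38.2, 41.7 and 46.1 TPM (log2 -0.16, standard error 0.050, edgeR adjusted p = 0.0655), and 3 of 16 alternatives called it lower. The difference of the changes was tested in the fit of 18 libraries. AMO1 minus LP1 was -0.37 (standard error 0.074, edgeR adjusted p = 0.0081) and H929 minus LP1 was -0.42 (standard error 0.074, edgeR adjusted p = 0.0013), both called in all 20 alternatives. BCL2L11 was the 1 member of 10 called in each, against 0.741% and 0.874% of the 26436 genes. Between AMO1 and H929 no member passed, and no gene did (edgeR's quasi-likelihood test, 1771 genes with an unadjusted p under 0.05), while limma-voom called 0 genes, DESeq2 5 and edgeR without the filter on low counts 48, none of them a member. With the replicate letter as a block in AMO1 alone edgeR called 1 gene between AMO1 and H929, and with the block in every line 0 genes (2183 and 2207 with an unadjusted p under 0.05), again with no member. Both blocked fits were chosen after seeing the data.

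BMF was lower with NEAT1 under the labels H929 and LP1, on weaker evidence. Under the label H929 it was 10.6, 10.0 and 9.66 TPM (SCR) against 7.27, 7.19 and 9.43 TPM (gN1E), a log2 fold change of -0.29 (1.22-fold lower, standard error 0.080, edgeR adjusted p = 0.0298). Under the label LP1 it was 33.0, 32.0 and 27.6 TPM against 26.2, 23.9 and 28.5 TPM, a log2 fold change of -0.25 (1.19-fold lower, standard error 0.059, edgeR adjusted p = 0.0351). The call was kept in 8 of 16 alternatives in H929 and 6 of 16 in LP1. It was lost in H929 without SCR A, SCR B, gN1E A or gN1E B (adjusted p 0.0702 to 0.224) and in LP1 without SCR A, SCR B, gN1E A or gN1E B (0.135 to 0.204). In AMO1 the log2 fold change was 0.02 (standard error 0.10), and the sign turned with scaling by total count alone (-0.02).

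BAK1, BID and BIK did not pass in any line. BAK1 lay between -0.06 and -0.04, with standard errors up to 0.057. BID was -0.04 in AMO1, 0.13 under the label H929 and -0.12 under the label LP1. BIK was -0.30 in AMO1 (standard error 0.13, edgeR adjusted p = 0.332) and -0.18 under the label H929 (standard error 0.094, edgeR adjusted p = 0.306), with the libraries labelled gN1E all below those labelled SCR in both lines, and 0.03 under the label LP1.

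**Figure D4:**
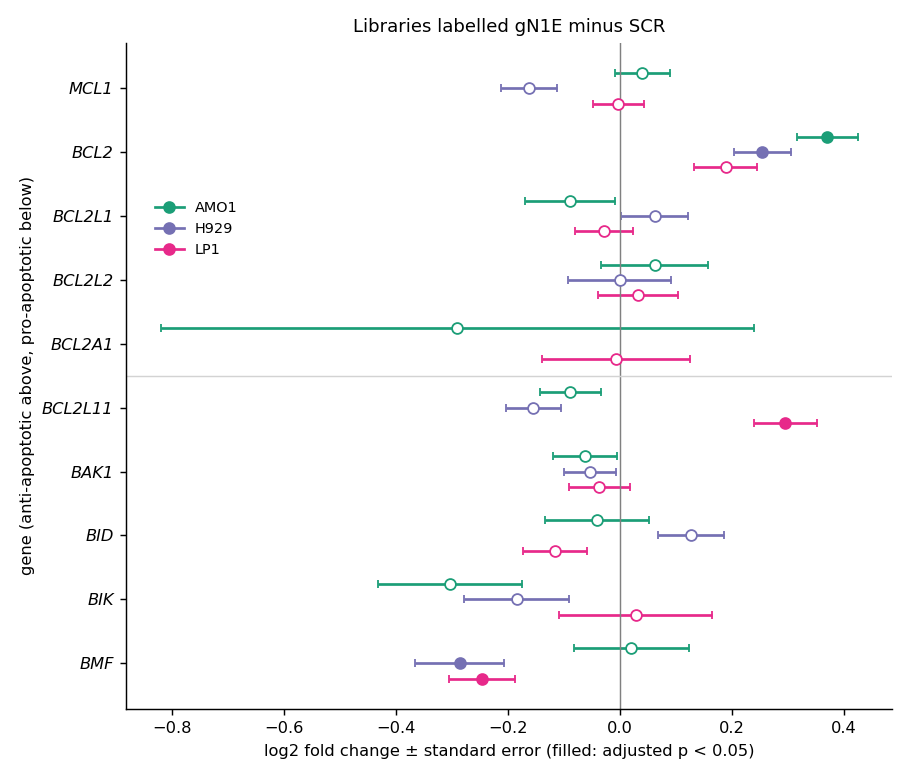
Log2 fold change with its standard error (x axis), libraries labelled gN1E minus SCR, of the 10 genes (y axis) in the 3 lines; filled points have an adjusted p under 0.05, and BCL2A1 was not tested under the label H929. BCL2 is positive in all lines (0.37, 0.25, 0.19), and BCL2L11 is positive only under the label LP1 (0.29).

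Other genes of the pathway were read from 7 lists with 65 genes. At an adjusted p under 0.05, 1 gene was higher with NEAT1 and 0 lower in AMO1 (of 61 tested), 1 was higher and 4 lower under the label H929 (of 63), and none passed under the label LP1 (of 62; edgeR's quasi-likelihood test, 7 with an unadjusted p under 0.05). Over all genes 2.06%, 5.47% and 1.43% passed, so the counts of list genes are near the background and say nothing particular of the lists. BBC3, which encodes the p53-induced BH3-only protein PUMA, was the 1 called gene of 11 tested in the list of other BCL2 family genes under the label H929. Its log2 fold change was -0.22 there (standard error 0.063, edgeR adjusted p = 0.0381), -0.25 in AMO1 (adjusted p = 0.177) and -0.40 under the label LP1 (adjusted p = 0.0956), and 8 of 16 alternatives kept the call in H929. It was also called lower in 5 of 16 alternatives in AMO1, the block by replicate letter among them (log2 -0.25, edgeR adjusted p = 0.00839), and in 3 of 16 under the label LP1. The pore former BAX was 93.4 to 115 TPM in AMO1 and had log2 fold changes of -0.15, -0.03 and -0.08 in AMO1, H929 and LP1. PMAIP1, which encodes the MCL1-binding protein NOXA, was 34.4 to 38.4 TPM in AMO1 and 2.55 to 3.77 TPM under the label LP1, with log2 fold changes of 0.05 and -0.16. Neither passed in any line.

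CASP8, the initiator caspase of the death receptors, was the 1 called gene of 13 among apoptosome and caspase genes, under the label H929. It was 72.3 ± 2.78 TPM under SCR and 57.8 ± 4.79 TPM under gN1E (SD, n = 3), a log2 fold change of -0.26 (standard error 0.048, edgeR adjusted p = 0.000842), called in all 16 alternatives. XIAP, which blocks caspases, was the 1 of 7 inhibitors of apoptosis called under the label H929 (log2 -0.18, edgeR adjusted p = 0.0455), and 6 of 16 alternatives kept it. Among 13 transcription factors of BCL2 family genes, FOXO1, one of the forkhead factors known to activate BCL2L11, rose by 0.24 in AMO1 (edgeR adjusted p = 0.0473, kept in 7 of 16) and by 0.25 under the label H929 (0.00489, kept in 15 of 16). The NF-κB subunit gene REL was lower under the label H929 (log2 -0.19, edgeR adjusted p = 0.0493, kept in 4 of 16). For XIAP, REL and BBC3 the call in H929 was lost on leaving out SCR A, SCR C, gN1E A or gN1E B, and for XIAP and REL also without gN1E C. For FOXO1 in AMO1 it was lost without any 1 of SCR A, SCR D, gN1E A, gN1E C or gN1E D, and in H929 without SCR A. None of the 8 genes of MCL1 protein turnover, the 4 mitochondrial membrane partners or the 7 death receptor genes passed in any line (edgeR's quasi-likelihood test, 1, 3 and 0 genes, 0, 2 and 0 genes, and 1, 2 and 0 genes with an unadjusted p under 0.05 in AMO1, H929 and LP1).

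**Figure D5:**
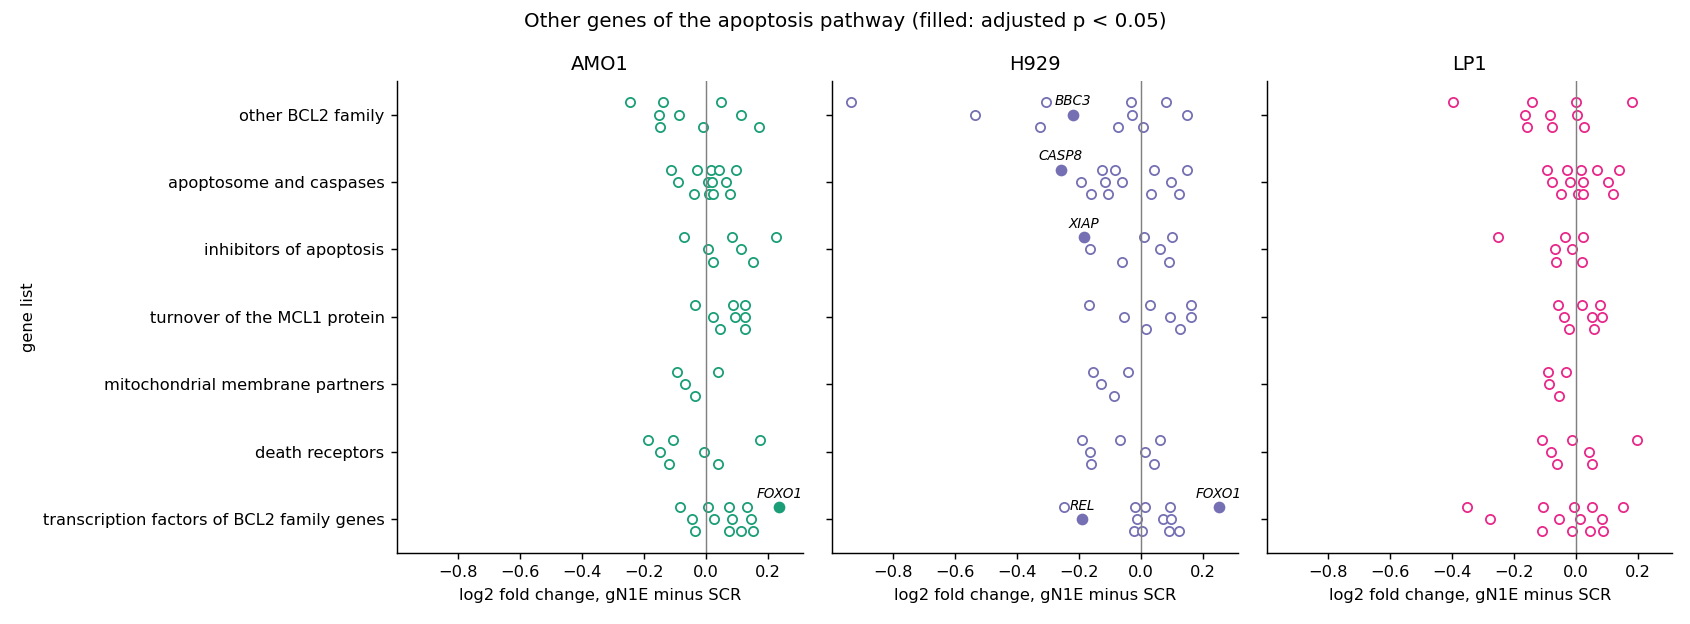
Log2 fold change, libraries labelled gN1E minus SCR (x axis), of the other apoptosis genes by list (y axis) in each line; each point is a gene and filled points, named, have an adjusted p under 0.05. FOXO1 is filled in AMO1 and H929, BBC3, CASP8, XIAP and REL in H929, and no gene in LP1.

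The genes whose level over the 18 libraries was most like that of each member were found by Pearson's r of log2 CPM among 13852 genes with a mean of at least 1 CPM. The points share 3 lines, so r mostly repeats the order of lines and carries no test. BCL2 was most like NBAS and TNIK (r = 0.997 each), and 1698 genes exceeded 0.95. MCL1 was most like KBTBD2 and CD27-AS1 (0.982 each), BCL2L1 like TIMM8B and NOC2L (0.9945 and 0.9939), BCL2L2 like CEP57 and VPS35L (0.9886 and 0.9885), and BCL2A1 like TUBGCP5 and LINC02863 (0.993). BCL2L11 was most like PSMB8-AS1 and TRIM16 (0.994), BMF like LSP1 and ASB2 (0.994 and 0.993), and BIK like EPS8L1 and MMAB (0.976 and 0.97). BID (CREBBP and MLST8, 0.9495 and 0.9488) and BAK1 (CYC1 and DMAC2, 0.901 and 0.873) had no gene above 0.95.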

How the data were processed

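The authors deposited raw counts of read pairs per gene, not normalized, from stranded total RNA libraries; per the submitters' notes they used STAR 2.7.10a on hg38 and featureCounts 1.6.4 with GENCODE release 43. Libraries were grouped by their labels. From these counts, edgeR 4.0.16 in R 4.3.3 (TMM, quasi-likelihood test with robust estimation, p-values adjusted over every gene in the fit by Benjamini-Hochberg, threshold 0.05) was run line by line, keeping a gene where 1 or more of the 6 libraries held 10 reads, and on all 18 libraries for differences between lines. For 3 libraries against 3, the smallest p of an exact permutation test is 0.1. TPM used the exonic lengths in the deposited tables and total counts of 28061606 to 69937229. Alternatives used limma 3.58.1, DESeq2 1.42.0, other scalings and filters, an offset for genomic span, the replicate letter as a block and each library left out. The letter was taken to pair libraries where every pair's deviations correlated above 0.1, which held in AMO1 (0.196, 0.158 and 0.121) and not in H929 (0.00155, -0.0658 and -0.0981) or LP1 (0.175, 0.00966 and -0.0564). The labels themselves do not say that a letter pairs libraries. Named genes were NEAT1, the members, list genes past the threshold with BAX, BBC3 and PMAIP1, and the 2 genes most like each member. The members and lists were chosen with earlier results of these data known. The fit was tested on simulated data. Python 3.11.15 with pandas 2.3.3 and matplotlib 3.10.9 made tables and figures.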

Additional observations from a re-analysis of the deposited data

Results flagged for a closer look

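The change of BCL2L11 with the gapmeR label differed between lines by an interaction test. The gN1E minus SCR log2 fold change in AMO1 was lower than that under the label LP1 by -0.365 (standard error 0.074, edgeR adjusted p = 0.0081; over 20 alternatives -0.45 to -0.33, adjusted p 0.000541 to 0.0363). That under the label H929 was lower than that under the label LP1 by -0.415 (standard error 0.074, edgeR adjusted p = 0.0013; over 20 alternatives -0.52 to -0.38, adjusted p 5.64e-06 to 0.00933). Both comparisons share the 6 LP1 libraries, in whose levels SCR lies at 15.4 to 18.4 TPM and gN1E at 18.8 to 21.9 TPM. CASP8 differed in the same way between H929 and LP1 by -0.292 (standard error 0.073, edgeR adjusted p = 0.0419), with log2 fold changes of -0.26 and 0.07 in these lines. This call was lost under limma-voom (adjusted p = 0.0586) and on leaving out each of the 12 libraries except SCR D of LP1 and gN1E A of H929 (adjusted p 0.0509 to 0.185 where lost). With 3 libraries per group, no single library was tested for standing apart.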

How the results depend on the processing

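The study's Results counted changed genes at an FDR (adjusted p) under 0.05. Its supplementary methods name another rule, an adjusted p below 0.1 and at least 1.5-fold. At that rule 176 genes were called in AMO1, 369 in H929 and 102 in LP1, with 0 members in each line. Between lines that rule left 1 member, BCL2A1 with its few read pairs, for AMO1 against H929 (19.2% of all genes). For AMO1 and H929 against LP1 it left 7 each (58.3% and 54.6%). It left 0 members in either interaction that had called 1, beside 0.363% (AMO1 minus LP1) and 0.337% (H929 minus LP1) of all genes. The construction of the rule, a minimum fold, accounts for these lower member counts. Without a filter on low counts 808 genes were called in AMO1 and 700 in LP1. With the replicate letter as a block 1394 genes were called in AMO1, where the letter was taken to pair libraries, and BCL2 was still the 1 member. In H929 and LP1, where not every letter correlated above 0.1, the block called 931 and 243 genes and left 1 member each. The block with the offset for genomic span gave 1195, 851 and 162 genes and 1 member in each line. In the interactions the block, added after seeing the data, moved the genes called between H929 and LP1 from 231 to 361 (345 with the block in AMO1 alone) and those between AMO1 and LP1 from 196 to 234 (257), and no call of a member changed. DESeq2 called 512 genes in LP1 and 4 members in H929 (of 1317 genes), and scaling by total count alone called 4 members in H929 (of 1299 genes) and 1 in LP1 (of 359). In LP1 limma-voom, a minimum of 1 CPM in 3 libraries and the joint fit each called 1 member (of 262, 276 and 259 genes). The causes of these changes were not tested.

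With 1 library left out, the genes called ran from 254 to 606 in AMO1, from 701 to 1272 in H929 and from 87 to 780 in LP1. The lowest were without gN1E D, without gN1E B and without SCR B, and the highest in LP1 was without SCR D. The members called stayed at 1 in AMO1, ran from 1 to 2 in H929 and from 0 to 2 in LP1, where 0 was without SCR B.

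The anti to pro ratio depended on how it was built. In CPM, without length, it was 5.925 (SCR) and 6.675 (gN1E) in AMO1, 5.717 and 5.654 in H929, and 4.772 and 4.904 in LP1. Without MCL1 it was 0.3609 and 0.4617, 0.2984 and 0.3566, and 0.3427 and 0.3582. With 7 further family genes it was 1.742 and 1.961, 1.481 and 1.423, and 1.574 and 1.643.

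Signs turned for log2 values near 0 that had missed the threshold. Of these, BAK1 between AMO1 and LP1 (0.209, edgeR adjusted p = 3.11e-06) and BID between H929 and LP1 (0.265, edgeR adjusted p = 8.92e-06) were called under scaling by total count alone, and BID also in the libraries labelled gN1E (0.213, edgeR adjusted p = 0.0172). BMF in AMO1 was -0.0183 by total count, and BCL2L2 in H929 turned from -0.00132 to 0.00203 (DESeq2), 0.0023 (RLE size factors), 0.00382 (no filter), 0.00131 (block), 0.00333 (span offset), 0.00525 (both) and 0.0109 (joint fit). MCL1 in LP1 was 0.0246 by total count, 0.00999 with the span offset and 0.00984 with it and the block. BCL2A1 in LP1 was 0.00128 (limma-voom), 0.0206 (total count), 0.0118 (span offset) and 0.0161 (with the block too). BAK1 between AMO1 and LP1 was -0.0157 by DESeq2 and by RLE size factors, BID between H929 and LP1 was -0.0643 in the libraries labelled SCR, and the interaction of BCL2 between H929 and LP1 was -0.00664 by total count. With 1 library left out, signs also turned within these ranges: in AMO1 BID from -0.144 to 0.0562 and BMF from -0.104 to 0.147; in H929 BCL2L2 from -0.0355 to 0.0292 and BAX from -0.0525 to 0.00233; in LP1 MCL1 from -0.0164 to 0.0155, BCL2L1 from -0.0564 to 0.00148, BCL2A1 from -0.0673 to 0.0842, BAK1 from -0.092 to 0.0029 and BIK from -0.0426 to 0.152. BAK1 between AMO1 and LP1 ran from -0.00499 to 0.0487, and the interaction of BMF between H929 and LP1 from -0.0948 to 0.0537.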
